A study of Mus musculus with 8 samples.

Results

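miR-218 was measured by a single assay, mmu-miR-218, out of 750 distinct miRNA assays run on each sample by real-time PCR. The assay was taken by its name in the deposited tables and was selected on its Ct and delta Ct difference between the groups in earlier results of these data, so that difference is described here without a test. The samples were CD34+/CD105- cells sorted from collagenase-digested mouse renal artery. They came from 4 mice with renal ischemia/reperfusion injury, in which both renal arteries had been clamped, and from 4 mice after sham surgery. Both groups share the tissue, the sort and the RNA kit. The sources used here do not give strain, sex, age, clamping time, reperfusion time or the number of sorted cells. CD34 marks endothelial and progenitor cells, and CD105 (endoglin) marks endothelial and mesenchymal stromal cells. The cards hold no transcript of either, so the sort could not be checked. The endothelial miR-126-3p was detected in all 8 samples, and so were the leukocyte miR-223, the smooth muscle miR-145 and the mesenchymal miR-199a-3p. Other markers of these cells were not. The smooth muscle mmu-miR-143 was detected in 0 ischemia/reperfusion mice and 2 sham mice, and the leukocyte miR-142-5p and mesenchymal miR-199a-5p in no sample. Detection of a single marker thus does not show that its cell type was present.

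miR-218 is made from introns of Slit2 and Slit3, which encode secreted SLIT ligands. SLIT proteins act through ROBO receptors to guide axons and to pattern blood vessels. In mouse retina and in cultured human endothelial cells, miR-218 is known to repress ROBO receptors and enzymes of heparan sulfate synthesis, so a ligand gene also carries a brake on its own receptor. In the mouse, miR-218 is also abundant in motor neurons. SLIT and ROBO transcripts were not measured on these cards.

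Both mouse hairpins are shown because a single assay reads the product of both genes. The Mir218-1 hairpin lies at chr5:48223942-48224051 on the plus strand, inside Slit2, and the Mir218-2 hairpin at chr11:35616816-35616925 on the plus strand, inside Slit3 (RefSeq, GRCm38.p6). In each, the capitals mark the mature 5p arm, bases 25 to 45 of the hairpin, written 5′ to 3′.
Mir218-1: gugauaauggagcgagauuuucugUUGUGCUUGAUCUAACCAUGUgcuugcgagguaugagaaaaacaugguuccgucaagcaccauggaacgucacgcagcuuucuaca
Mir218-2: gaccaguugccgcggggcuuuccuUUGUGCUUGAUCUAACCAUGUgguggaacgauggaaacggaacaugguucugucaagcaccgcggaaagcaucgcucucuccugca
The 21 bases of the 5p arm are the same at both loci, while 50 of the other 89 hairpin positions match without gaps. A Ct of mmu-miR-218 therefore sums the output of Slit2 and Slit3 and does not say which gene gave it.

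The arms from the 3′ side differ between the genes and could tell them apart. They are shown with the seed (bases 2 to 8) in capitals, below the shared 5p arm.
miR-218-5p: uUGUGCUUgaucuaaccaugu
miR-218-1-3p: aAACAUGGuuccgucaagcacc
miR-218-2-3p: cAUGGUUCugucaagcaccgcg
Assays named for these passenger arms, mmu-miR-218-1# and hsa-miR-218-2#, were on the other card of the pair. Each had a Ct in 0 of 8 samples, so the data hold no readout specific to either host gene. The mmu-miR-218 assay carries no arm in its name and was taken as the 5p arm, because the passenger assays are named separately. Of 1679 mature mouse names in RefSeq, 2 carry this seed, miR-218-5p and miR-7002-3p, and the second was not among the assays.

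The threshold cycle (Ct) of an assay is lower where more RNA is present. The Ct of miR-218 was 28.0, 28.3, 28.6 and 27.7 in ischemia/reperfusion mice 1 to 4, against 25.5, 26.5, 24.3 and 23.1 in sham mice 1 to 4. Every ischemia/reperfusion mouse thus lay above every sham mouse in Ct, meaning less miR-218 signal. Of the 54 miRNA assays detected in all 8 samples, 5.56% separated the groups in this way in Ct, miR-218 included. All 8 values were clear of the detection limit of Ct 35, by 6.43 to 7.31 cycles in ischemia/reperfusion mice and by 8.49 to 11.9 cycles in sham mice. The mean Ct was 28.1 ± 0.389 in ischemia/reperfusion mice and 24.9 ± 1.48 in sham mice (SD, n = 4 each).

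The authors subtracted a reference value per sample and card, and the sign is turned here, giving a log2 scale on which a higher value means more RNA. Which RNA it was is not given in the sources used here. On this minus delta Ct scale miR-218 was at -6.94, -5.96, -8.05 and -6.02 in ischemia/reperfusion mice 1 to 4, against -4.85, -4.07, -5.30 and -5.17 in sham mice 1 to 4. The groups did not overlap, with a gap of 0.66 between the highest ischemia/reperfusion mouse and the lowest sham mouse. The means were -6.74 ± 0.98 in ischemia/reperfusion mice and -4.85 ± 0.55 in sham mice (SD, n = 4 each). The log2 difference was -1.89 ± 0.66 (SE from limma), a level 3.71-fold lower after ischemia/reperfusion. In the authors' deposited table the fold for this assay is 0.269. In sorted cells measured in bulk, fewer cells carrying miR-218 and less miR-218 per cell cannot be told apart.

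**Figure D1:**
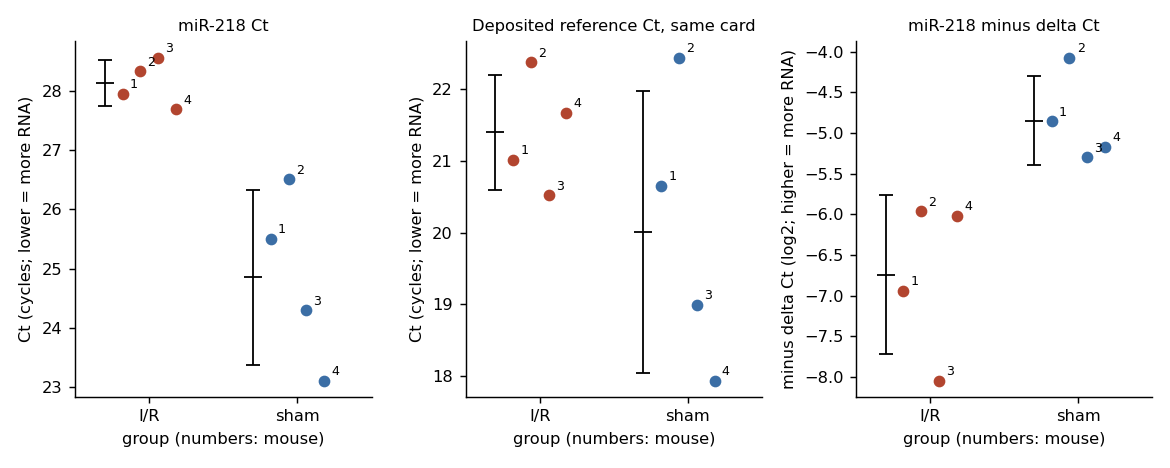
miR-218 Ct (cycles), the deposited reference Ct of its card (cycles) and miR-218 minus delta Ct (log2) in each mouse, with I/R for ischemia/reperfusion. Points are mice with their label numbers, and bars beside them are mean ± SD. The groups do not overlap for miR-218 on either scale, while the reference Ct overlaps.

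The spread of miR-218 changed in opposite ways when the reference was subtracted. Within ischemia/reperfusion mice the SD was 0.389 cycles for Ct and 0.98 for minus delta Ct. Within sham mice it was 1.48 cycles for Ct and 0.55 for minus delta Ct. The sham mice ran in the same order for miR-218 Ct and for reference Ct, lowest in mouse 4 and highest in mouse 2. Among ischemia/reperfusion mice, mouse 3 had the highest miR-218 Ct and the lowest reference Ct, 20.5. Counted from the smallest SD among the 54 assays, miR-218 ranked 5 among ischemia/reperfusion mice in Ct and 30 in minus delta Ct, and it ranked 17 among sham mice in Ct and 5 in minus delta Ct.

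The deposited reference itself was at Ct 21.0, 22.4, 20.5 and 21.7 in ischemia/reperfusion mice, against 20.7, 22.4, 19.0 and 17.9 in sham mice. It was 1.39 cycles higher on average after ischemia/reperfusion, with overlapping groups. The median Ct of the 54 assays was 28.2 to 28.8 in ischemia/reperfusion mice and 24.7 to 29.0 in sham mice. The number of detected miRNA assays was 82 to 98 in ischemia/reperfusion mice and 75 to 163 in sham mice. The part of these sample-wide shifts in the miR-218 difference was not tested. The values that follow give miR-218 against other references.

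The mean of miR-218 was lower after ischemia/reperfusion under the deposited reference and 6 other choices, but the separation of the groups depended on the choice. Against snoRNA202, a small nucleolar RNA on the other card, miR-218 was at -3.38, -2.64, -4.38 and -2.44 in ischemia/reperfusion mice, against -0.48, -0.15, -0.65 and -1.27 in sham mice. The groups stayed apart, as for 16.7% of the 54 assays with that reference, and the log2 difference was -2.57 ± 0.63 (SE). Without a reference the groups were also apart, at -3.28 ± 0.87.

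With the mean Ct of the 34 miRNAs of the same card detected in all samples as reference, the log2 difference was -1.23 ± 0.60 (SE). Ischemia/reperfusion mice were at 0.43, 0.41, -0.27 and 1.80, against 1.20, 2.41, 1.92 and 1.79 in sham mice. Ischemia/reperfusion mouse 4 then lay inside the sham range, while 1.85% of the 54 assays were apart and lower. With the median of the 54 miRNAs of both cards the difference was -1.26 ± 0.54, and mouse 4 again lay above the lowest sham mouse. There too 1.85% of assays were apart and lower. Both references include miR-218 itself.

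The control RNAs on the card of miR-218 spread more. Against snoRNA135 the difference was -1.72 ± 0.98 (SE), with 3 of 4 ischemia/reperfusion mice below the lowest sham mouse and 0% of assays apart. Against Y1, a small cytoplasmic RNA, it was -1.59 ± 1.54, with 2 of 4 below and 1.85% of assays apart and lower, and Y1 itself reached Ct 35.9 in sham mouse 2. The plant control ath-miR159a had no Ct on either card. miR-218 groups were thus apart under the deposited reference, under snoRNA202 and without a reference, and overlapped under the other 4.

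**Figure D2:**
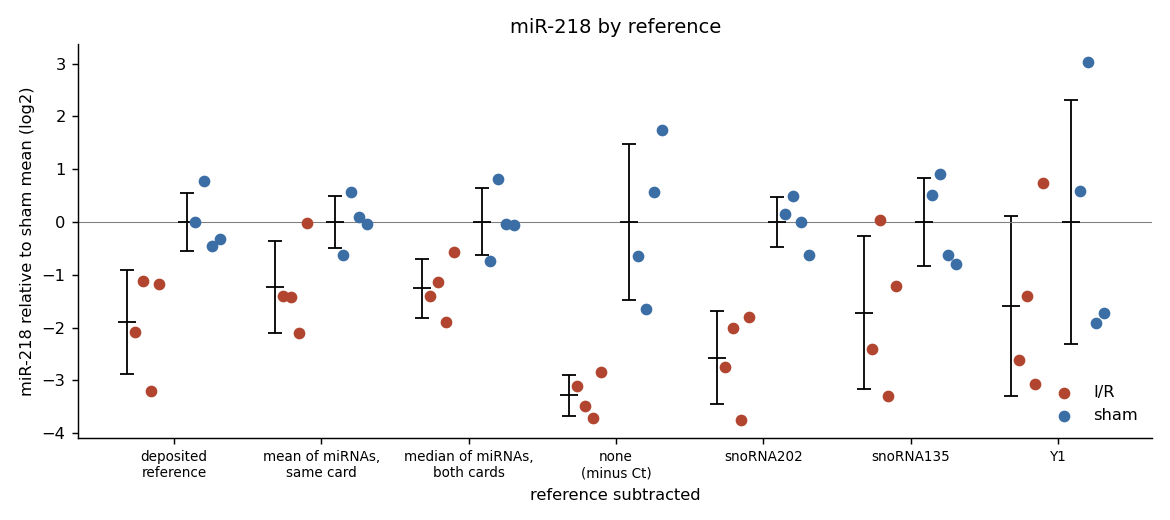
miR-218 level (log2) relative to the sham mean under the deposited reference and 6 other choices. Points are mice, bars are mean ± SD (n = 4), I/R is ischemia/reperfusion. The means lie lower in I/R throughout, by 1.23 to 3.28, and the groups overlap under the miRNA mean, the miRNA median, snoRNA135 and Y1.

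Ranks within a sample need no reference RNA. Counted from the lowest Ct among the 54 assays detected in all samples, miR-218 stood at rank 26, 22, 30 and 20 in ischemia/reperfusion mice, against 19, 14, 17 and 14 in sham mice. The groups did not overlap in rank, as was also found for miR-126-3p and miR-222 but for no other assay, a background of 5.56% of the 54 lower in rank and 0% higher. On its own card of 34 such assays miR-218 was at rank 18, 15, 20 and 10 in ischemia/reperfusion mice, against 12, 8, 10 and 7 in sham mice, and the groups overlapped. miR-126-3p and miR-222 are on that card too, and the part of a shift between cards in the ranks was not tested. Since miR-218 was chosen for this contrast, its place among these assays is a description.

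Each of the other 53 assays detected in all samples was also used in turn as the sole reference. miR-218 had a lower mean after ischemia/reperfusion against 48 of the 53. Its groups did not overlap against 17 of the 53, always with ischemia/reperfusion lower. Treated the same way, miR-126-3p was apart against 12, miR-222 against 10, and the median assay against 2. Of the 53, 33 were on the card of miR-218 and the rest on the other card. These counts too are a description, since miR-218 was chosen for this contrast.

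Against the deposited reference, 49 of the 72 tested miRNA assays (68.1%) had lower means in ischemia/reperfusion mice, and the median log2 difference was -0.80. miR-218 lay 1.09 below that median, and 14 of the 72 had a more negative difference. Its SE was smaller than the median SE of 0.88, and 11 of the 72 had a smaller one. The median of all 72 shifted with the reference, between -1.93 without one and 0.09 with the miRNA median. With limma and Benjamini-Hochberg adjusted p values, 0 of the 71 assays other than miR-218 (0% in either direction) passed 0.05. An unadjusted p under 0.05 was found for 9 of these 71 (12.7%, all lower after ischemia/reperfusion, 0% higher), and for 8 by least squares without eBayes. Groups that did not overlap under the deposited reference were found for 2 of the 54 assays (3.7% lower, 0% higher), miR-218 and miR-126-3p.

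**Figure D3:**
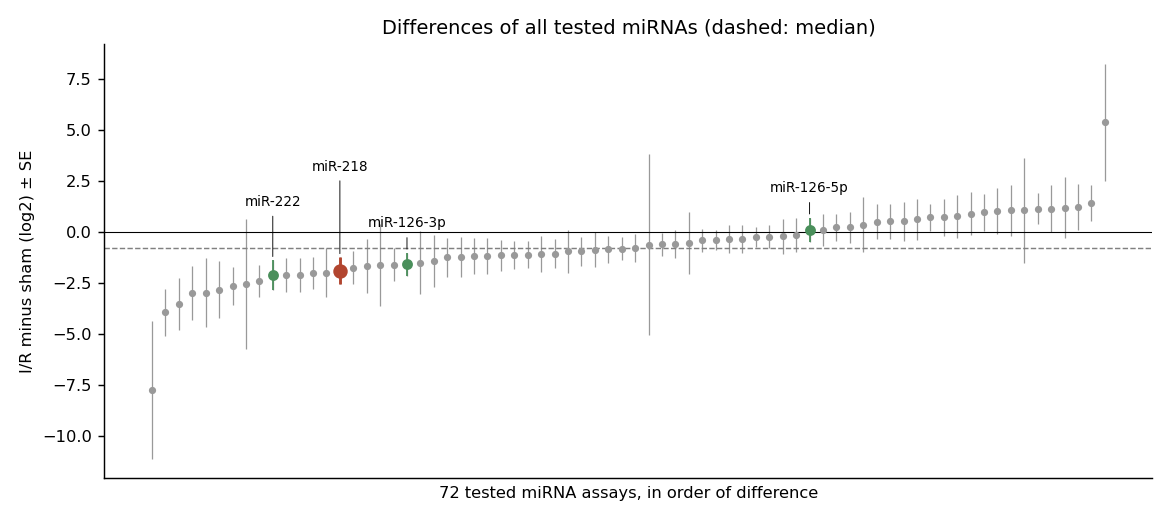
Log2 difference, ischemia/reperfusion (I/R) minus sham, for the 72 tested miRNA assays in order, with SE bars and the median of -0.80 dashed. miR-218 (red) stands at -1.89, beside miR-222 at -2.12, miR-126-3p at -1.59 and miR-126-5p at 0.11 (green).

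Likeness to miR-218 was measured as the SD, over the 8 samples, of the difference between an assay and miR-218 in minus delta Ct. A small value means that the pair moved together, between the groups or within them. This SD takes in the group difference that miR-218 was chosen for, so an assay with a like difference comes out close. The order is therefore a description, and the order after removal of group means is given below. The closest of the 53 assays was miR-126-3p, the endothelial miRNA made from an intron of Egfl7, at 0.52 cycles against a median of 1.49. Its mature sequence in RefSeq (there named miR-126a-3p, chr2:26591402-26591423, plus strand, GRCm38.p6) is shown with its seed in capitals, which differs from that of miR-218.
miR-126-3p: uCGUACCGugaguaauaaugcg
Next came miR-24 at 0.73, miR-26a at 0.85, miR-92a at 0.94, miR-195 at 0.96, hsa-miR-30a-3p at 1.03, let-7c at 1.05 and miR-30b at 1.06. Of these 8, 7 were on the card of miR-218, as were 33 of all 53, and assays of a card share its reference. The farthest were miR-673 at 4.20 and miR-1897-5p at 6.99.

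miR-218 minus miR-126-3p was -0.85, -0.74, -1.93 and -0.27 in ischemia/reperfusion mice, against -0.53, -0.79, -0.32 and -0.92 in sham mice. The ratio of the pair overlapped between the groups, with ischemia/reperfusion mouse 3 lowest. Both had lower means after ischemia/reperfusion, miR-126-3p by -1.59 ± 0.57 (SE, n = 4 each, limma adjusted p = 0.228).

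The other arm of the same hairpin, miR-126-5p, followed miR-218 within the groups but not between them. miR-218 minus miR-126-5p was -0.05, 0.51, 0.07 and 0.10 in ischemia/reperfusion mice, against 2.22, 2.49, 2.10 and 1.83 in sham mice. Within each group the ratio was narrow, with an SD of 0.24 in ischemia/reperfusion mice and 0.27 in sham mice (n = 4 each), with means of 0.16 in ischemia/reperfusion mice and 2.16 in sham mice. Assays differ in efficiency, so the shift between mice is read here and not the level of 1 assay against the other. After removal of group means, miR-126-5p had the smallest SD of difference from miR-218 of all 53 assays, 0.26 cycles, ahead of miR-24 at 0.48 and miR-126-3p at 0.53. Both assays are on the same card, so this ratio does not use the reference.

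miR-24, which is expressed in endothelium and in many other cells, had the next smallest SD. miR-218 minus miR-24 was -3.40, -3.40, -4.30 and -3.14 in ischemia/reperfusion mice, against -3.05, -2.04, -2.21 and -2.60 in sham mice. The groups were apart by a narrow margin, with a log2 difference of -1.08 between them. For the other 6 close assays the difference from miR-218 shifted by -1.30 (let-7c) to -0.65 (miR-195), with overlapping groups for miR-26a, miR-92a, miR-195, hsa-miR-30a-3p, let-7c and miR-30b.

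**Figure D4:**
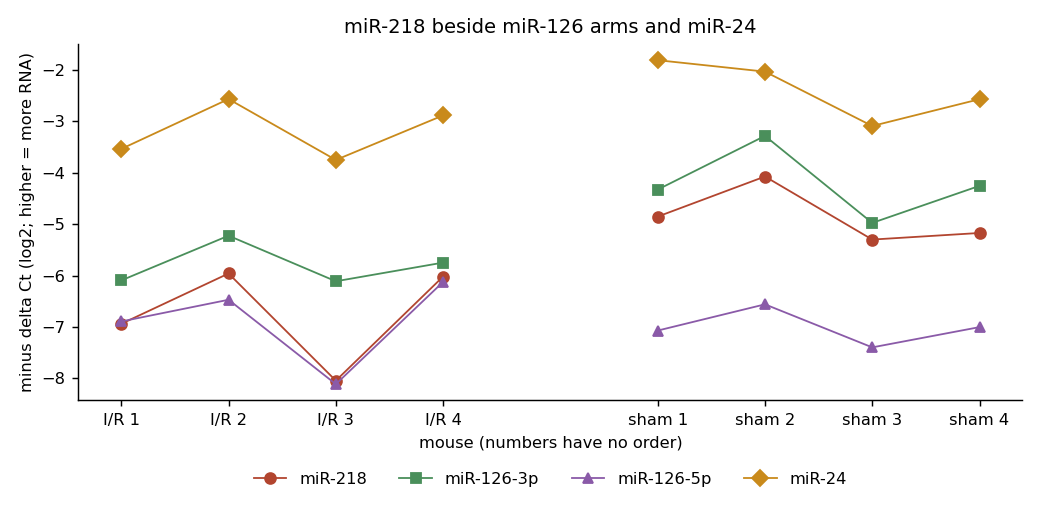
Minus delta Ct (log2) of miR-218, both miR-126 arms and miR-24 in each mouse, with ischemia/reperfusion (I/R) on the left. The gap between miR-218 and miR-126-5p is -0.05 to 0.51 in I/R mice and 1.83 to 2.49 in sham mice; its shift between the groups is what can be read, since assays differ in efficiency.

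Other endothelial and angiogenic miRNAs were compared as a list. Beside miR-218, 10 members were tested, of which 0 passed the adjusted threshold in either direction, 8 had lower means after ischemia/reperfusion and the median log2 difference was -1.26, beside 49 of 72 and -0.80 for all tested assays. Those with lower means included miR-222, which represses KIT in human endothelial cells, at -2.12 ± 0.74, miR-320 at -1.99 ± 0.78 and miR-92a, an inhibitor of vessel growth in mouse, at -0.93 ± 0.71 (SE, n = 4 each). miR-100 was at -1.99 ± 1.22, without sham mouse 2, where it was not detected. miR-152 was at -1.67 ± 1.33, with ischemia/reperfusion mouse 4 at -11.71 and the others between -6.56 and -5.57. miR-24 was at -0.81 ± 0.57 and miR-31 at -0.14 ± 0.84. hsa-miR-378 (1.41 ± 0.89) and miR-126-5p (0.11 ± 0.60) had higher means. Limma adjusted p values of these 10 lay between 0.228 and 0.892. The count of lower means was 9 of 10 without a reference and with snoRNA202, beside 65 of 72 and 56 of 72 for all tested assays. It was 7 of 10 under the other references, beside 46 of 72 (snoRNA135), 41 of 72 (miRNA mean and Y1) and 35 of 72 (miRNA median). The count changed since miR-31 and miR-126-5p changed sign. The summed level of the list relative to the reference was 2.06 to 3.53 in ischemia/reperfusion mice and 0.598 to 5.49 in sham mice. In every mouse hsa-miR-378, which is on the other card than miR-218, had the highest value in this sum. Assays differ in efficiency and each card has its own reference, so this sum and those of the lists below do not rank amounts of different miRNAs. Without hsa-miR-378 the sum was 0.158 to 0.386 in ischemia/reperfusion mice and 0.282 to 0.583 in sham mice.

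miR-218 was also set beside other tested assays whose miRNAs lie inside a protein-coding gene on the same strand. Of the 72, 55 matched a RefSeq miRNA gene by name or synonym, and 20 of these lay inside such a gene at any of their loci. miR-24 and miR-30c have 2 loci each, and their only hosts were Aopep and Nfyc. Some assays share a host: both miR-126 arms (Egfl7), miR-25 and miR-106b (Mcm7), and hsa-miR-30e-3p and miR-30c (Nfyc). The counts are thus of assays and not of separate host genes. Without miR-218, 12 of 19 had lower means, 0 passed the limma threshold and the median log2 difference was -0.81. For the 35 outside, 24 had lower means and the median was -0.62. Those with the smallest p were rno-miR-664 in Rab3gap2 (-3.54 ± 1.28, adjusted p = 0.228), miR-126-3p in Egfl7, miR-21 in Vmp1 (-2.99 ± 1.33, 3 values per group, adjusted p = 0.362) and miR-1894-3p in Ppp1r10 (5.38 ± 2.87, without ischemia/reperfusion mouse 2, adjusted p = 0.446).

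Markers of other cells were read for the same samples. Of 13 neural assays, 3 were detected in at least 1 sample and 0 in all 8, and the neuronal miR-124 and miR-9 had no Ct in any sample. The detected ones were miR-138 and miR-134 in sham mice and miR-212 in ischemia/reperfusion mice. The summed neural level relative to the reference was 0 to 0.00372 in ischemia/reperfusion mice and 0 to 0.000187 in sham mice. No erythroid assay of 3 was detected.

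Of the fibroblast and mesenchymal markers, 7 of 7 tested assays had lower means, beside 49 of 72 for all tested assays, with a median log2 difference of -1.67 and 0 passing the limma threshold. The 7 assays cover 6 miRNAs, since miR-214 was read by 2 assays, at -0.86 ± 0.87 (hsa-miR-214) and -3.95 ± 1.17 (mmu-miR-214, without sham mouse 2). miR-152 is in this list and in the endothelial list. With the miRNA mean as reference 6 of 7 had lower means, beside 41 of 72, and with the miRNA median 5 of 7, beside 35 of 72. The summed level of the whole list relative to the reference was 0.0264 to 0.0414 in ischemia/reperfusion mice and 0.0212 to 0.106 in sham mice. This sum counts both miR-214 assays. The only tested smooth muscle marker, miR-145, was at -2.09 ± 0.84 (limma adjusted p = 0.278). The summed smooth muscle level was 0.000254 to 0.000684 in ischemia/reperfusion mice and 0.000309 to 0.00337 in sham mice. Among 5 tested leukocyte assays of 4 miRNAs (miR-223 was read by 2 assays), 1 had a lower mean (median 0.53). Without a reference 4 of 5 did, beside 65 of 72, and with snoRNA202 4 of 5, beside 56 of 72. The summed level of the whole leukocyte list, which counts both miR-223 assays, was 0.00638 to 0.0711 in ischemia/reperfusion mice and 0.00789 to 0.0382 in sham mice. Of 20 tubule and epithelial assays, 10 were detected in no sample, among them the defining epithelial miR-200a, miR-200b, miR-200c, miR-141, miR-429 and miR-205. The 3 tested were miR-30a, miR-30b and miR-30c, and 3 of 3 had lower means (median -0.24). With the miRNA mean or Y1 as reference 1 of 3 did, beside 41 of 72, and with the miRNA median 1 of 3, beside 35 of 72. miR-194, a marker of tubule epithelium, was detected in 0 ischemia/reperfusion mice and 2 sham mice. From the same list, miR-203 and miR-204 were each detected in 2 ischemia/reperfusion mice and 3 sham mice. Where detected, miR-203 lay between -9.43 and -4.13 and miR-204 between -11.03 and -4.83, each highest in ischemia/reperfusion mouse 2. The summed level of the tubule and epithelial list was 0.109 to 0.463 in ischemia/reperfusion mice and 0.212 to 0.536 in sham mice. In sham mouse 3, which had the highest sum, the level of miR-194 alone was 0.360 out of 0.536. The part of these other cells in the miR-218 difference was not tested.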

How the data were processed

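MicroRNA was measured by real-time PCR with a FAM label on a 7900HT Fast instrument, per the labels' protocols, in 8 samples. The deposited tables hold Ct and delta Ct values and a fold change, a ratio the authors computed as 2 to the power of the difference in mean delta Ct, per the file headers. The 2 catalogue series were taken as 2 cards. Within each sample and card, deposited Ct and delta Ct differed by the same amount for every assay, which was taken as the reference. Instrument software, card type and reference were not given in the sources used here.

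An assay counted as detected below Ct 35. Repeated wells were averaged; miR-218 has 1 well per sample. The 72 miRNA assays below that limit in 3 or more mice per group were fitted with limma 3.58.1 (lmFit, eBayes) in R 4.3.3, two-sided, Benjamini-Hochberg at 0.05. The code was also run on simulated data with independent errors and a shift larger than that of miR-218, so effects of the size seen for miR-218 were not covered there. Standard errors are from the limma fit of the measured data, and miR-218 is left out of counts that rest on a p. Each sample is a separate mouse by its label; the number of mice limits precision.

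The assay, lists and naming rule were chosen with earlier results of these data known. The rule names the 8 closest and 2 farthest assays, tested endothelial list members, assays whose groups do not overlap, controls of the card, and 4 intragenic miRNAs. The use of each assay as sole reference and the rank on the card were chosen after seeing the data, as were the ratio to miR-126-5p and the ordering after removal of group means. Same-numbered mice did not deviate together (correlations -0.38 to 0.020), so numbers were not treated as pairs.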

Additional observations from a re-analysis of the deposited data

Results flagged for a closer look

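Among 57 groups of 4 values examined for a sample far from the other 3, 2 stood out, and chance flags about 1 in 20 such groups. Neither was a value of miR-218. miR-152, an endothelial list member, was at -11.71 in ischemia/reperfusion mouse 4, with the other ischemia/reperfusion mice between -6.56 and -5.57. miR-1897-5p, the assay least like miR-218, was at -12.16 in ischemia/reperfusion mouse 1, with the others between 7.10 and 9.10.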

How the results depend on the processing

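The log2 difference of miR-218 stayed below 0 under the 14 alternatives that could change it. The other 5 (replicate block, Ct 32, Ct 40, undetected values given Ct 35, no eBayes) leave the difference of an assay detected in all samples as it is by construction. It moved by more than the spread between mice only without a reference, to -3.28. Leaving out each mouse gave -2.15 to -1.46, and the replicate block by mouse number gave an SE of 0.57 around the same -1.89. The count of miRNAs past the limma threshold was 0 as reported and under every other reference, at Ct 32, without eBayes and with the replicate block. It was 1 with a limit of Ct 40 and 1 where undetected values were given Ct 35 (hsa-miR-421 in both), and 0 to 1 when each mouse was left out (miR-1896 without sham mouse 1, miR-199a-3p without sham mouse 2, names taken after their values were seen), each lower after ischemia/reperfusion. The count of assays whose groups do not overlap was 2, and 1 with the miRNA mean, 1 with the miRNA median, 9 with snoRNA202, 0 with snoRNA135 and 1 with Y1. It was 2 to 9 when each mouse was left out, highest without sham mouse 2 (9) and ischemia/reperfusion mouse 2 (8), and 4 without ischemia/reperfusion mouse 3. Of the 8 assays closest to miR-218, 8 remained with Ct as measured, 5 with Pearson correlation in place of the SD, and 5 to 7 when each mouse was left out (5 without sham mouse 2 or sham mouse 4). The mean rank of miR-218 among assays was 8.5 places later after ischemia/reperfusion, 10 among assays detected in each sample and 6.5 on its card, so all gave the same direction. Signal limits the passenger arms and most neural markers, which had no Ct.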
